A study of Mus musculus with 2 samples.

Results

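The aminoacyl-tRNA synthetases are the enzymes that join each amino acid to its tRNA, and 36 of their genes were followed here in mouse ATDC5 cells. They were taken by gene symbol from a list, 20 for the cytosol and 16 for the mitochondrion, that was drawn up with earlier results of these data known. All 36 had a probe among the 20660 genes that carry a symbol on the array. In the line labelled HES1, 18 of the 19 measured cytosolic synthetases had a higher signal than in the line labelled GFP, as had 45% of all genes measured. The cytosolic differences reached 2.36-fold, and their median was 0.52 on the log2 scale. The 15 measured mitochondrial synthetases had a median of -0.06, which is also the median of all genes.

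ATDC5 is an established mouse line used as a model of cartilage cells, and HES1 is a repressor of transcription and a classical target of Notch signalling. Per the series design, both lines were made by lentiviral transduction, 1 to overexpress GFP, the control, and 1 to overexpress HES1. Both were grown in monolayer for 3 days, and each group is 1 line measured on 1 single-colour array. The labels do not say whether a line is a clone or a pool, what promoter drives the transgene or how long it was kept in culture, so the transgene and the line cannot be told apart.

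Protein synthesis in a mammalian cell runs in the cytosol and, for the few proteins encoded by mitochondrial DNA, inside the mitochondrion. All synthetases are encoded in the nucleus, and most amino acids have separate genes for the cytosolic and the mitochondrial enzyme. Uncharged tRNA activates the kinase GCN2, which phosphorylates the initiation factor eIF2, and the transcription factor ATF4, translated under that condition, is known to act on many genes of amino acid supply, cytosolic synthetases among them. In cartilage, where cells secrete large amounts of collagen, the same pathway is known to be engaged by endoplasmic reticulum stress.

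Signals are the processed signals of the scanner software, brought to the same 75th percentile on both arrays, 1057.2, and differences are log2 of the HES1 over the GFP signal. Of the 20660 genes, 14273 exceeded background clearly on at least 1 array (by the scanner software's flag), and only these are counted as measured. The single Hes1 probe was well above background on neither array, at 10.2 and 10.3, and where it lies relative to the transgene was not examined, so it checks neither label. Of 13 chondrocyte markers 9 were measured, Sox9 at 3683 and 3227 and Col2a1 at 13796 and 7379, while Matn1, Matn3, Hapln1 and Cnmd were not well above background. The summed signal of the 9 was 55181 in the GFP line and 44152 in the HES1 line, most of it from Sox5 at 34961 and 31887. At least 1.5-fold lower in the HES1 line were 4 of the 9, against 14.6% of all genes. The 4 include Sox6, which was well above background on the GFP array only. It counts by its measured difference, and its bound is 1.48-fold, short of 1.5-fold. All 5 measured osteoblast markers were at least 1.5-fold lower and 3 at least 2-fold, a threshold that 4.95% of all genes passed downwards. The median of the 5 was -1.07, with summed signals of 16073 and 8409. Of 9 macrophage and leukocyte markers on the array 5 were measured, and Adgre1, Tyrobp, Lyz2 and Laptm5 stayed near background in both lines. The summed signals of those 5 were 50240 and 25413, most of it from Itgam at 47669 and 22759. By gene, 3 of the 5 were above 0 and 2 below, with a median of 0.04, where 45% of all genes were above 0. Of those 3, Ptprc and Fcgr1 were well above background on the HES1 array only. The part of other cells in the values that follow was not tested. Signals come from bulk RNA, in which fewer cells of a type and less RNA per cell cannot be told apart. There is no replicate, so no test was run. The only error is that of the scanner software for each spot, which gives 0.20 to 0.22 for a synthetase's log2 difference. On the GFP array it was never under 10% of the signal of a spot well above background. Each synthetase probe has 1 spot, so this error is no spread measured between spots, and it covers neither culture nor labelling.

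Among the cytosolic enzymes, Nars, which charges asparagine, had the largest difference, with signals of 3928 in the GFP line and 9287 in the HES1 line (log2 difference 1.24, 2.36-fold). Cars, for cysteine, followed at 16794 and 35751 (1.09, 2.13-fold). Those 2 were the only measured cytosolic synthetases at or past 2-fold, where 11.1% of all genes passed 2-fold upwards. Aars, for alanine, went from 28774 to 55968 (0.96, 1.95-fold), and Iars, for isoleucine, from 15483 to 27808 (0.84, 1.80-fold). Tars, for threonine, and Yars, for tyrosine, shared a difference of 0.81, with signals of 21387 and 37385 for Tars and of 385 and 673 for Yars. Lars, for leucine, at 0.66 and Sars, for serine, at 0.65 completed the 8 of 19 cytosolic members at least 1.5-fold higher, a threshold that 17.4% of all genes passed. Under 11 other ways of processing (other scalings, background correction, filters and probe rules) this count ran from 8 to 14, with 12 by loess and 14 by the ribosomal scaling, while the share of all genes ran from 11.7% to 23.3%.

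The other 10 cytosolic synthetases above 0 lay between 0.08 and 0.53. Mars, for methionine, was at 0.53, Wars, for tryptophan, at 0.52, and Rars, for arginine, at 0.44. Eprs, a fused enzyme for glutamate and proline, and Farsb, the beta subunit of the phenylalanine enzyme, both had a difference of 0.42. Gars, for glycine, whose gene supplies the cytosol and the mitochondrion, went from 131383 to 171504 (0.38), and Dars, for aspartate, had a difference of 0.26. The lower end held Farsa, the alpha subunit of the phenylalanine enzyme (12159 and 14320, 0.24), Kars, for lysine, whose gene also supplies both compartments (46446 and 51143, 0.14), and Hars, for histidine (6410 and 6773, 0.08). The differences of Kars and Hars were within the scanner error.

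Qars, for glutamine, was the only measured cytosolic synthetase below 0, at 27510 in the GFP line and 19703 in the HES1 line (-0.48, 1.40-fold lower). Its difference lay at percentile 19.2 of all genes, whereas the other 18 lay at percentile 61.2 or above. Vars, for valine, gave no value in these counts, because its only spot was marked as a local background outlier on the GFP array. With that spot kept it read 5855 and 7633 (0.38), which would make 19 of 20 above 0. Put in order, the 19 differences form 18 steps between neighbours, and only that from Hars down to Qars, 0.56, exceeded the scanner error, so the rank of most neighbours is not resolved.

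**Figure D1:**
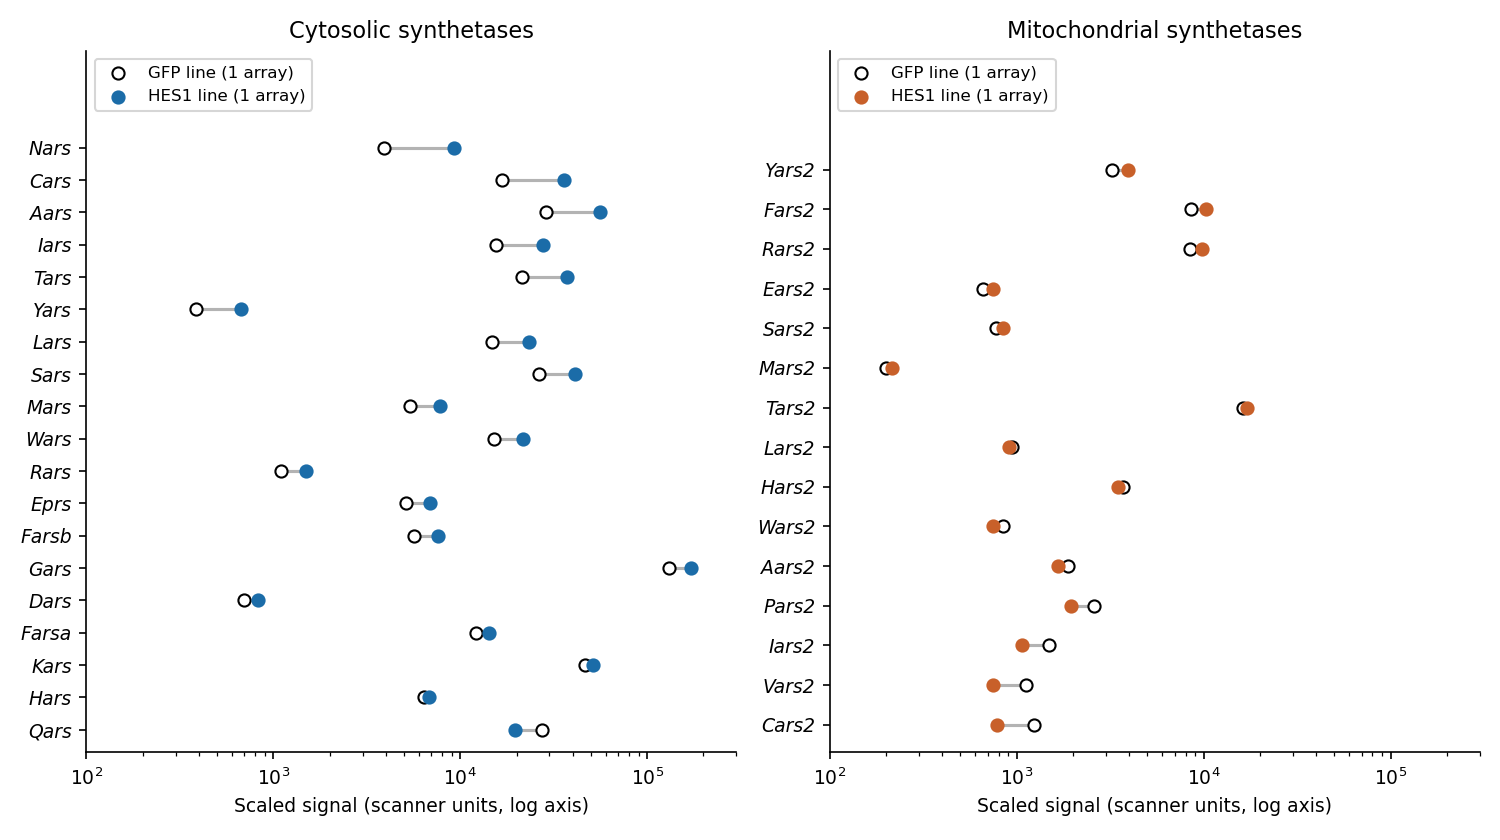
Scaled signals on a log axis for the 19 measured cytosolic (left) and 15 measured mitochondrial synthetases (right), with the GFP array as open and the HES1 array as filled circles, ordered by difference within each panel. The filled circle lies to the right for every cytosolic gene but Qars, from Nars at 3928 and 9287 down to Hars at 6410 and 6773; signals of different genes come from different probes and are not comparable in level.

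The cytosolic share of 18 of 19 above 0 lay above the background of 45%, as did the share past 1.5-fold, while 2 of 19 past 2-fold was near the 11.1% of all genes. The cytosolic differences reached 0.33, the 75th percentile of all genes, in 14 members. Bright genes as a whole did not share this: the 9393 genes within the signal range of the cytosolic synthetases had a median of -0.12, 39.2% were above 0, 11.4% were past 1.5-fold upwards and 5.98% past 2-fold. Among genes detected in both lines, as all 19 were, 7.04% passed 2-fold upwards. Under the 11 other ways of processing, all measured cytosolic members but Qars kept a difference above 0, the median ran from 0.48 to 0.73, and Qars ran from -0.54 to -0.27.

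By role, the 8 cytosolic synthetases that are held in the multi-synthetase complex had a median of 0.43, with 2 at least 1.5-fold higher, Iars and Lars. The 11 measured enzymes outside the complex had a median of 0.65, with 6 at least 1.5-fold higher and all 11 above 0. The lowest of that free group was Hars, and Qars belongs to the complex. By catalytic fold, the 8 measured class I enzymes had a median of 0.59 and the 10 class II enzymes, with both phenylalanine subunits among them, 0.40, and each class held 4 members past 1.5-fold. These medians lie closer together than the spread within each group, and no test of the difference was possible. The 3 scaffold proteins of the complex read -0.28 for Aimp1, 0.12 for Aimp2 and 0.56 for Eef1e1.

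The promoter windows of 5 cytosolic synthetases are shown because they hold an ATF4-type element, and Qars is shown because it is the member that lay below 0. RefSeq promoter sequences, from 250 bases before to 50 after the annotated start on build GRCm38.p6, were matched for 13 cytosolic and 14 mitochondrial members. Each line gives 100 bases of the gene's own strand, 5′ to 3′, with the TGATGNAA element in capitals on either strand. The windows are chr8:111033702-111033801 (plus strand) for Aars, chr15:11399659-11399758 (minus) for Tars, chr6:55037901-55038000 (plus) for Gars, chr13:49682050-49682149 (plus) for Iars, chr4:129189823-129189922 (plus) for Yars and chr9:108507905-108508004 (plus) for Qars. Those of Aars, Tars, Gars and Qars lie upstream of the start, and those of Iars and Yars end 20 bases into the transcribed first exon.
Aars: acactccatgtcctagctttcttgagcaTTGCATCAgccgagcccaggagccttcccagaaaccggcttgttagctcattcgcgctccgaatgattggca
Tars: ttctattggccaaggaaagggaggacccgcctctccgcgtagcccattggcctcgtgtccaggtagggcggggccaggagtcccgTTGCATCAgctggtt
Gars: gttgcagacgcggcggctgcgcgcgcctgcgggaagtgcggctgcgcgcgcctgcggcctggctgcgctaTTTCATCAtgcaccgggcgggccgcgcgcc
Iars: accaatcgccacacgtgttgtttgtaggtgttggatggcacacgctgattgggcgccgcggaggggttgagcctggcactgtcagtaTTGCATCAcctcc
Yars: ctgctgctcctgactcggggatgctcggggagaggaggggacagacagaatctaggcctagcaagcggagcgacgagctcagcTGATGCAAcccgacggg
Qars: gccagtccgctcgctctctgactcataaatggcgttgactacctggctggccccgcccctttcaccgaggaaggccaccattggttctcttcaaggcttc

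TGATGNAA, the core of the C/EBP-ATF response element through which ATF4 acts, searched on both strands, was found in 5 of the 13 cytosolic promoters (Aars, Gars, Iars, Tars and Yars), in 0 of the 14 mitochondrial ones and in 4.51% of the 27025 genes in the table. The element begins 112 bases before the start in Aars, which holds another match after its start, 30 bases before it in Gars and 15 before it in Tars, and in Iars and Yars it begins just after the start. In 4 of the 5, all but Gars, it reads TGATGCAA, a form looked for after the sequences were seen, which 1.03% of all promoters hold. Those 4 genes had differences between 0.81 and 0.96, Gars had 0.38, and the 8 cytosolic members with a promoter and no match lay between -0.48 and 0.65, with a median of 0.34. The 6 measured cytosolic members that were not in the table include the highest, Nars and Cars. TTCNNNGAA, the gamma-activated site of interferon-responsive genes, was found in Aars, Kars and Nars2 and in 9.55% of all promoters, and GAAANNGAA, the core of the interferon-stimulated response element, in Qars and in 9.76%. A match is a string of letters, and whether a factor was bound there was not measured.

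Among the mitochondrial enzymes, 7 of 15 had a difference above 0, near the 45% of all genes. At least 1.5-fold higher were 0, against 17.4% of all genes and 12.5% of those within the signal range of the mitochondrial synthetases. At least 1.5-fold lower was 1, a threshold that 14.6% of all genes passed downwards. Yars2, for tyrosine, was highest, at 3242 in the GFP line and 3951 in the HES1 line (0.29), ahead of Fars2, for phenylalanine, at 8510 and 10235 (0.27). Rars2, for arginine, read 8490 and 9835 (0.21) and Ears2, for glutamate, 657 and 747 (0.18). Sars2, for serine, stood at 0.12, Mars2, for methionine, at 0.11 and Tars2, for threonine, at 0.07. No mitochondrial member reached the 75th percentile of all genes.

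The lower end of the mitochondrial set was Cars2, for cysteine, at 1234 and 788 (-0.65, 1.57-fold lower), the 1 member past 1.5-fold. Under the 11 other ways of processing that count ran from 0 to 2, and it was 0 with loess, normexp and the scalings on ribosomal genes or on shared probes. Vars2, for valine, read 1123 and 750 (-0.58), Iars2, for isoleucine, 1489 and 1064 (-0.48) and Pars2, for proline, 2595 and 1947 (-0.41). Each of these 4 has another probe, which gave -0.94 for Cars2, -0.84 for Vars2, -0.33 for Iars2 and -0.47 for Pars2. These 4 lay below 0 on both of their probes, but the other Pars2 probe was dim (77.2 and 55.7), with a scanner error of 0.37. Lars2 at -0.06, Hars2 at -0.10, Wars2 at -0.17 and Aars2 at -0.18 were within the scanner error, and each of the 4 turned positive under at least 1 other way of processing. Nars2, for asparagine, stayed near background in both lines, at 12.4 and 9.88. No synthetase of either compartment was at least 2-fold lower, against 4.95% of all genes.

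Another probe well above background on both arrays existed for 8 members, and its difference lay 0.01 to 0.50 from that of the brighter probe, with a median gap of 0.18. In 7 of the 8 the probes had the same sign. The exception was Wars2, whose probes read -0.17 (842 and 746) and 0.32 (158 and 197). Both probes of Wars were above 0, at 0.52 and 0.73, and the 2 probes of Farsa both read 0.24.

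**Figure D2:**
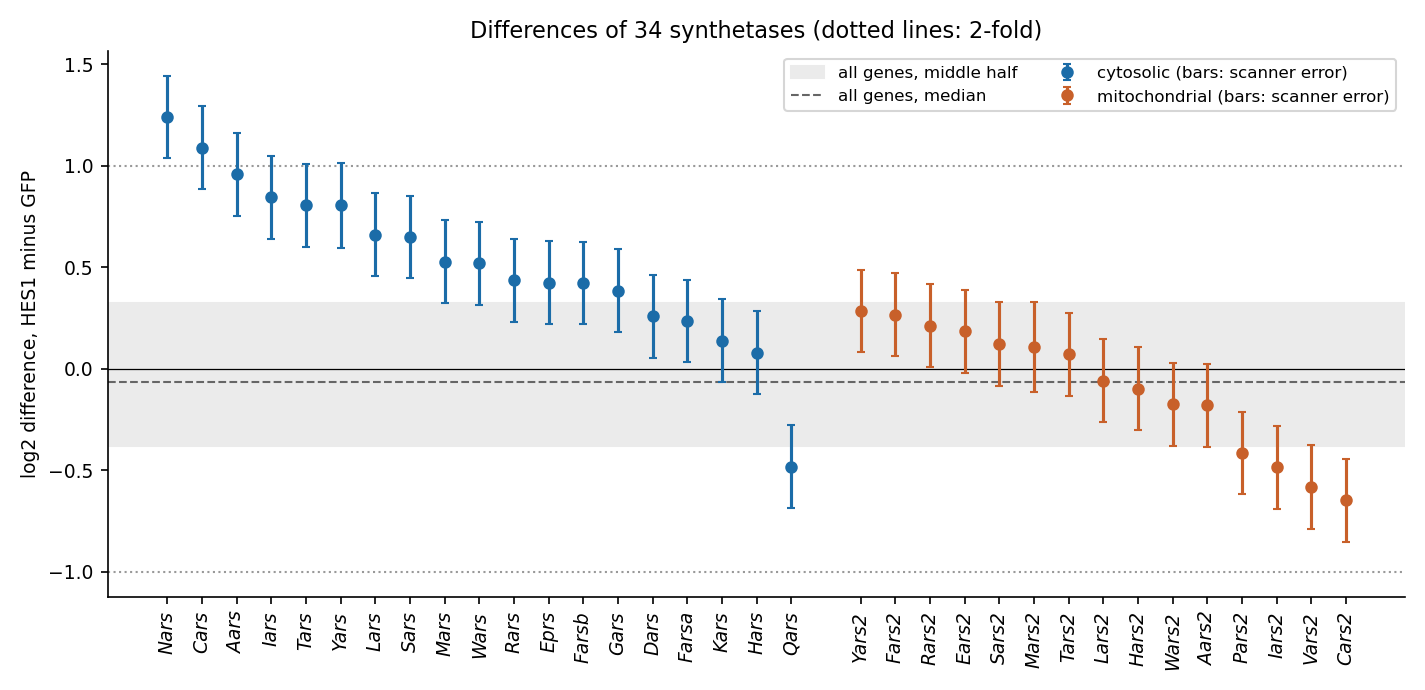
Log2 difference, HES1 minus GFP, of the 34 measured synthetases, with bars for the scanner software's error of 0.20 to 0.22; grey marks the range between the 25th (-0.38) and 75th (0.33) percentiles of all genes, and dotted lines mark 2-fold. Of the cytosolic members 14 lie above the grey band and Qars below it, while 0 mitochondrial members lie above it and Pars2, Iars2, Vars2 and Cars2 lie below it.

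Setting the cytosolic enzyme against its mitochondrial counterpart for the same amino acid compares differences within the same arrays, so a single scaling factor per array cancels. Of 17 such pairs 15 were measured, for 14 amino acids, and the cytosolic difference was the higher in 14. The median gap was 0.53, against a scanner error of 0.29 for a pair. The widest were cysteine, where Cars stood at 1.09 and Cars2 at -0.65 (gap 1.74), isoleucine, with Iars at 0.84 and Iars2 at -0.48 (1.33), and alanine, with Aars at 0.96 and Aars2 at -0.18 (1.14), the 3 pairs at least 2-fold apart. In all, 7 pairs were at least 1.5-fold apart. The pairs are not independent of each other, since Eprs is set against both Ears2 and Pars2 and Fars2 against both Farsa and Farsb. Phenylalanine held the pair that ran the other way, Farsa at 0.24 and Fars2 at 0.27, but that gap of -0.03 was within the scanner error. Its other pair, Farsb and Fars2, also had a gap within the scanner error, as had arginine, histidine and glutamate. The median of the cytosolic set exceeded that of the mitochondrial set by 0.58, and by 0.45 to 0.60 under the 11 other ways of processing.

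**Figure D3:**
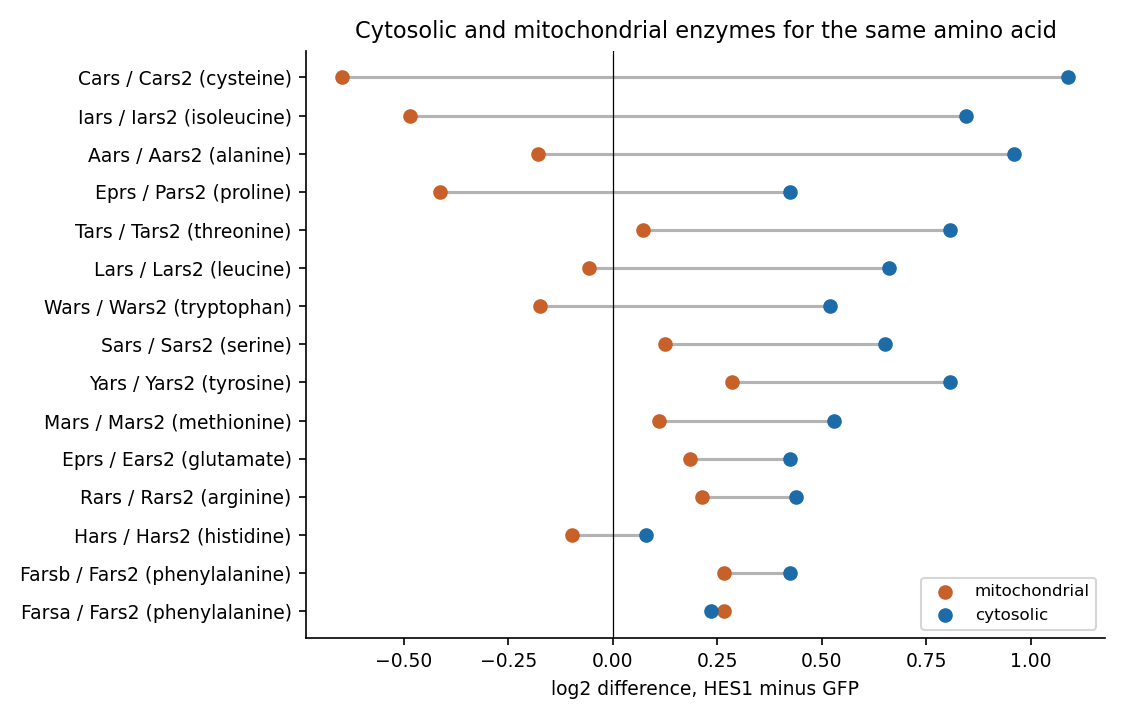
Log2 difference, HES1 minus GFP, of the cytosolic (blue) and the mitochondrial (orange) enzyme for the same amino acid in the 15 measured pairs, ordered by gap. The blue point lies to the right in every pair but Farsa and Fars2, and the widest gap is 1.74, for Cars and Cars2.

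The genes known to act with ATF4 upstream or beside the synthetases were mostly higher in the HES1 line. Atf4 itself, chosen for mention after its values were seen, read 140606 and 206431 (0.55). Of 27 measured genes on a list of ATF4 and its targets other than synthetases, 20 were at least 1.5-fold higher, against 17.4% of all genes. At least 2-fold higher were 11, against 11.1%, and at least 1.5-fold lower were 2, against 14.6%. The median of the list was 0.95. The largest were Ddit3, encoding the stress factor CHOP (1737 and 21785, 12.5-fold), Slc7a11, the cystine carrier (51.7 and 571, 11.0-fold), Atf3 (746 and 7901, 10.6-fold) and Trib3, a pseudokinase that feeds back on ATF4 (4465 and 27954, 6.26-fold). The GFP signal of Slc7a11 was dim, near 38.1, the lowest well above background on that array. Asns, which makes the asparagine that Nars uses and was also chosen after its values were seen, read 68307 and 132634 (0.96). Against this direction ran Ddit4, an inhibitor of mTORC1 signalling, at -0.82 and Slc38a2, a carrier of neutral amino acids, at -0.60. Of the 25 listed genes with a promoter sequence, measured or not, 9 held TGATGNAA, against 4.51% of all genes in the promoter table. The 9 include Pycr1, for which the array had no named probe.

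Upstream of ATF4, 2 of 6 eIF2 alpha kinases and phosphatase subunits were at least 2-fold higher, against 11.1% of all genes. Eif2ak2, encoding the RNA-activated kinase PKR, went from 1627 to 24308 (14.9-fold), and Ppp1r15a, which encodes the phosphatase subunit GADD34 and is itself an ATF4-pathway gene, from 6611 to 29999 (4.54-fold). Eif2ak4, encoding GCN2, which senses uncharged tRNA, read 3702 and 3755 (0.02), and Eif2ak3, encoding the endoplasmic reticulum kinase PERK, read 2995 and 1904 (-0.65). Both were chosen for mention by their role after their values were seen. Protein levels and phosphorylation were not measured.

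Wars is known as an interferon gamma target, and the genes listed with it differed far more than Wars did. Of the 9 measured ones, 8 reached 2-fold upwards in the HES1 line, against 11.1% of all genes. Cxcl10, a chemokine, read 1035 and 262774 (254-fold), Gbp3 1224 and 85241 (69.6-fold), Gbp2, a guanylate-binding protein like Gbp3, 1089 and 45663 (41.9-fold) and Tap1, a peptide transporter of antigen presentation, 340 and 8019 (23.6-fold). Wars, at 15072 and 21621, stood in the middle of the cytosolic synthetases, 0.52 being their median. Ciita, the regulator of MHC class II genes, read 81.5 and 69.7 (-0.23), and Ido1, which degrades tryptophan, stayed near background in both lines.

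Other steps of translation and tRNA metabolism lay nearer to the median of all genes. The 5 measured cytosolic elongation factors were below 0, where 45% of all genes were above 0. Their median of -0.34 stayed negative under the 11 other ways of processing, and Eef1d, a subunit of the exchange factor for eEF1A, was lowest at -0.54. The smallest in size, Eef1g at -0.18, turned positive with the ribosomal scaling described at the end. Among 10 initiation factors of the eIF2 and eIF2B complexes and 4E-BPs the median was 0.04. Past 2-fold were 0, against 11.1% of all genes upwards and 4.95% downwards. The largest was the translational repressor Eif4ebp1 (41632 and 77102, 0.89). The related repressor Eif4ebp2, named after its values were seen, ran the other way (9337 and 5272, -0.82). The 39 genes of tRNA processing, modification and export, all detected in both lines, had a median of 0.06. At least 2-fold higher were 2, against 11.1% of all genes and 7.04% of those detected in both lines. These were Trmt61a, a tRNA methyltransferase subunit (2258 and 5785, 2.56-fold), and Qtrt1, which inserts queuine (957 and 2217, 2.32-fold). The 6 genes of proofreading and release had a median of -0.01, which turned positive under at least 1 other way of processing.

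On the mitochondrial side, 4 genes of transamidation and formylation had a median of -0.17 and 9 mitochondrial translation factors one of -0.02. Both medians turned positive under at least 1 other way of processing. Past 1.5-fold were 0 of the 13, a threshold that 17.4% of all genes passed upwards and 14.6% downwards. The lowest of each list were Gatc (-0.42), a subunit of the enzyme that makes mitochondrial glutaminyl-tRNA in place of a glutamine synthetase, and Mrrf (-0.36), the ribosome recycling factor.

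**Figure D4:**
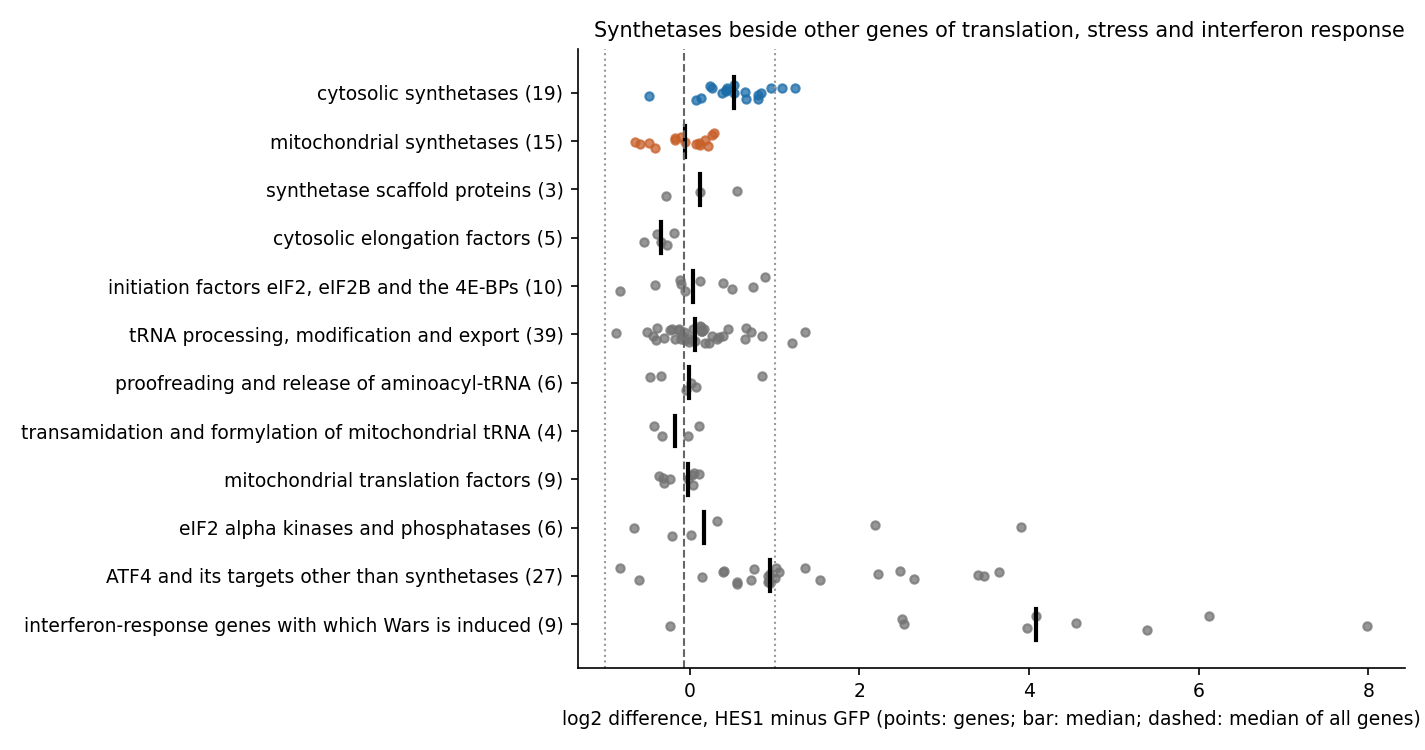
Log2 differences, HES1 minus GFP, of each measured gene on the synthetase lists and the lists of related genes, with the number measured in brackets, a black bar for the median, a dashed line for the median of all genes (-0.06) and dotted lines for 2-fold. The cytosolic synthetases (median 0.52) lie between the mitochondrial synthetases (-0.06) and the ATF4 list (0.95), and the interferon-response genes extend to 7.99.

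Scaling moved the zero of these comparisons. A scaling by 1 factor per array leaves the distance between the synthetase sets at 0.58 by construction, and it was 0.60 with quantile normalization and 0.58 with loess. Setting the arrays equal on 78 ribosomal protein genes raised the difference of every gene by 0.21, a loess fit raised the median of all genes by 0.14, and scaling on the median of the probes detected in both lines raised it by 0.11. Under these 3 the mitochondrial median became positive (0.15, 0.09 and 0.05), as did that of all genes, and it was 0.07 with the median over all probes of a gene. Among all genes past 2-fold 69.1% were higher in the HES1 line, and with the ribosomal scaling 83.0%.

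**Figure D5:**
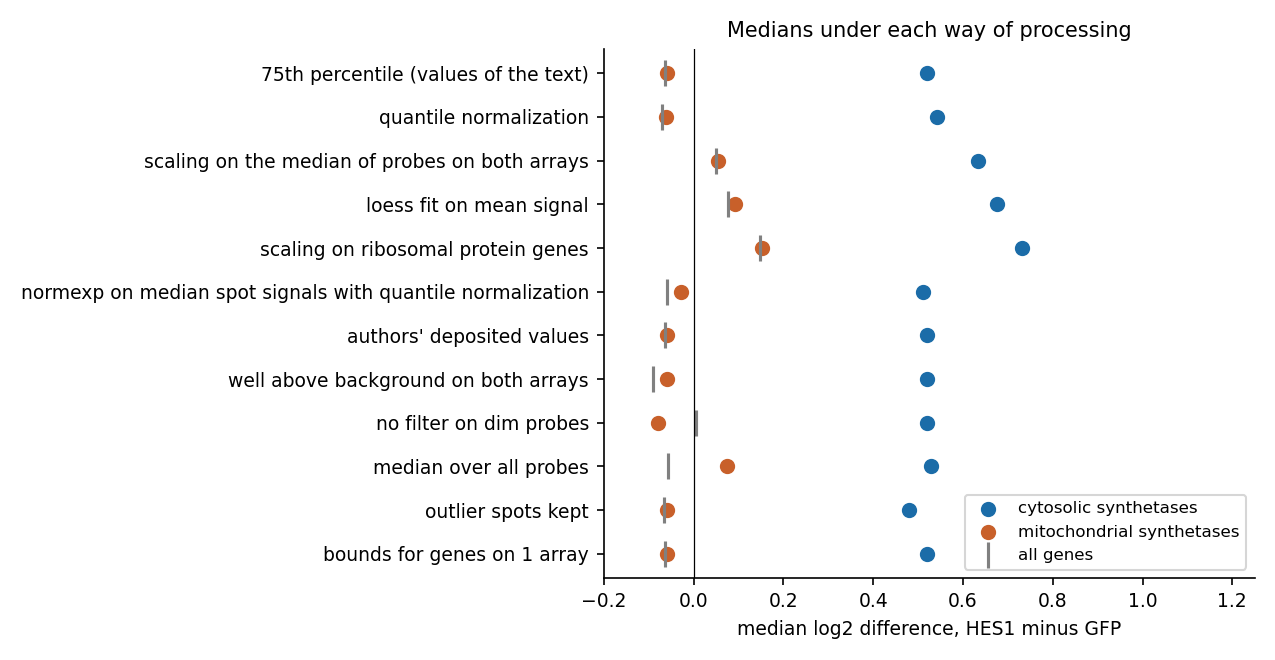
Median log2 difference, HES1 minus GFP, of the cytosolic synthetases (blue), the mitochondrial synthetases (orange) and all genes (grey bar) under the values of the text and 11 other ways of processing. The cytosolic median runs from 0.48 to 0.73, while the mitochondrial median runs from -0.08 to 0.15 and changes sign.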

How the data were processed

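Total RNA of 2 cell lines was labelled with Cy3 from 0.1 µg and hybridised to 1 Agilent mouse array each, both on a shared slide, per the labels' protocols and the file headers. The authors used Agilent Feature Extraction, version 10.10.1.1, to read the images, per the submitters' processing notes. Per the file headers, the deposited scanner files hold an intensity per spot, background-corrected by that software and not scaled between arrays. The authors' value table holds the same intensity times 1.45 (GFP) or 1.53 (HES1), which sets both 75th percentiles to 1057.2, with medians of 67.7 and 76.6; its scale, centring and direction were found from the scanner files.

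Here log2 of the processed signal was set against each array's 75th percentile. Spots with an outlier flag on either array (1053) were left out, and spots of a probe were averaged (54948 probes). Probes were named through a RefSeq table of GRCm38.p6, used for names only (26869 probes, 48.9%, with 1 symbol, the others with none). The brightest probe well above background on at least 1 array stood for a gene. A gene seen on 1 array counts by its measured difference; its fold is a bound. On the arrays, 54.6% and 56.6% of spots were well above background and 0 were saturated. The number of arrays limits the precision. Genes past 1.5-fold and 2-fold were counted, with no test.

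Values are given for every synthetase past 2-fold, the 4 highest and 4 lowest of each set and any with probes over 1 apart (there were 0), and for partner lists for up to 4 genes past 2-fold, or else the largest, except for items not reported here; other members are given by their difference or signals. The members and lists were chosen with earlier results of these data known. Alternatives were other scalings (quantile, loess with span 0.3, median of shared probes, ribosomal genes), normexp with offset 50 on median spot signals, the deposited values, other filters and probe rules, and other folds. Python 3.11.15, numpy 2.4.6, pandas 2.3.3, R 4.3.3 and limma 3.58.1 were used, and the scripts were tested on simulated data.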

Additional observations from a re-analysis of the deposited data

How the results depend on the processing

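No paired analysis was possible because each group has 1 array, and no array could be left out. A value counted as moved past 0.20, the scanner error, and a count past 1.5 times. Of the cytosolic synthetases 2 were at least 2-fold higher, but 4 with loess, 6 with the ribosomal scaling, 8 at 1.5-fold and 0 at 3-fold; of the mitochondrial ones 1 was lower at 1.5-fold. The ribosomal scaling, which adds a constant, took the medians to 0.73 (cytosolic), 0.15 (mitochondrial) and 0.15 (all genes). At 2-fold, 1582 of all genes were higher and 707 lower. Higher genes numbered 850 with normexp, 920 where both arrays had to be well above background, 2480 at 1.5-fold and 997 at 3-fold. Lower genes numbered 403 with the ribosomal scaling, 339 with normexp, 2084 at 1.5-fold and 178 at 3-fold. For normexp and loess the cause was not tested. Of the single-synthetase values under the alternatives, 337 stayed within the scanner error of the main value and 37 did not. These counts say little about stability. The deposited values, the filters, the bounds and the kept outlier spots left each measured synthetase at or very near its main value. The ribosomal constant of 0.21, just past the scanner error, moved all 34 members. The only other moves were Aars and Wars2 with the median over all probes and Gars with loess. The lowest signals well above background were 38.1 and 39.0, and nothing can be said of synthetase signals under these, such as those of Nars2. With 1 array a line, the spread between cultures is unknown, and differences near 0.20 cannot be resolved even between these RNAs.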
